A study of Homo sapiens with 4 samples.

Results

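SK-N-BE(2) is an established human neuroblastoma line, and its RNA was sequenced in 2 libraries from cells carrying a short hairpin RNA against IGF2BP3 (shIGF2BP3) and 2 libraries from cells carrying a control hairpin (shControl). The cells were transfected with the hairpins, both groups are the same line, and the labels give neither a time after transfection nor any other agent. The genes described here are 5 zinc finger repressors with a SNAG motif (INSM1, INSM2, SCRT1, SCRT2 and GFI1), the neuronal gene repressor REST, and the CoREST genes RCOR1, RCOR2 and KDM1A. They are 9 of 64252 rows in the count table, found by symbol. They were picked knowing that INSM1 and INSM2 were low and SCRT1 high after knockdown, so their levels and fold changes are a description and carry no p-value.

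INSM1 and INSM2 are zinc finger proteins named after insulinoma, and INSM1 is used as a marker of neuroendocrine tumours and is needed for chromaffin and neuroendocrine differentiation in mice. SCRT1 and SCRT2, relatives of the Snail family, are repressors found mostly in neurons. GFI1 acts mainly in blood and inner ear. All of these begin with a short SNAG motif, which can dock on the histone demethylase LSD1, the product of KDM1A. LSD1 sits with a CoREST scaffold (RCOR1, RCOR2 or RCOR3) and histone deacetylases, and REST brings the same complex to neuronal genes in cells that are not neurons.

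The coding starts of 3 of the SNAG genes are shown because they carry the motif that joins the group to LSD1. They are the first 60 coding bases in GENCODE 29 transcripts on GRCh38, and each stretch lies within 1 exon. Capitals mark codons whose residue is the same at that place in INSM1, INSM2, SCRT1, SCRT2 and GFI1.
INSM2: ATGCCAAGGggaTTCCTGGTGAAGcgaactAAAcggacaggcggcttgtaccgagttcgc
SCRT2: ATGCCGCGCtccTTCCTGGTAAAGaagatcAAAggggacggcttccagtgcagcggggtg
GFI1: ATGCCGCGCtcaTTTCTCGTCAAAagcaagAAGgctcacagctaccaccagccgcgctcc
The INSM2 stretch lies at chr14:35534253-35534312 on the plus strand. The SCRT2 stretch lies at chr20:675542-675601 and the GFI1 stretch at chr1:92483428-92483487, both on the minus strand.

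Of the first 10 residues 7 were identical in all 5 SNAG genes, and over 20 residues the number was 8. Within these 20 residues the shared ones therefore sat mostly in the first 10, and the rest of each protein was not compared. SCRT1 and SCRT2 shared 9 of the first 10 residues, while INSM2 and REST, which has no SNAG motif, shared 1.

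The knockdown was visible in its target. IGF2BP3, an RNA-binding protein that recognises m6A-marked mRNA, was counted 813 and 875 times in shIGF2BP3, against 4215 and 4347 times in shControl (log2 fold change -2.28, SE 0.09, adjusted p = 1.655e-12 by the edgeR quasi-likelihood test, Benjamini-Hochberg method). Library totals ran from 26755695 to 31946756 counts. Nothing states that replicates were separate cultures, so the spread between libraries, given as SD below, may be technical. The SE of a fold change comes from a fit that also draws on the variance of other genes. Markers of the sympathoadrenal lineage were present in every library, with means of 136 CPM in shIGF2BP3 and 261 CPM in shControl for TH (tyrosine hydroxylase). CPM here is a count scaled to its library's size with TMM factors. The glia markers SOX10 and CDH19 and the leukocyte markers CD3E and LYZ had 0 counts in all 4 libraries. The summed glia list of 8 genes stood at 9.21 and 9.44 CPM in shIGF2BP3 and at 5.87 and 6.17 CPM in shControl. The 9 leukocyte markers summed to 6.39 and 5.58 CPM in shIGF2BP3 and to 3.38 and 2.65 CPM in shControl. The 8 fibroblast markers summed to 1053 and 1037 CPM in shIGF2BP3 and to 831 and 865 CPM in shControl. The 8 proliferation markers summed to 793 and 789 CPM in shIGF2BP3, against 2948 and 2825 CPM in shControl. By the same test 8 of 8 fell, as did 25.6% of all tested genes. The part of any of these marker lists in the values below was not tested.

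Both INSM genes were much lower in the knockdown. INSM2 stood at 68.3 and 63.1 CPM in the shIGF2BP3 libraries, against 423 and 407 CPM in the shControl libraries. The groups did not overlap, which held for 74.5% of all tested genes. The INSM2 mean was 6.32-fold lower after knockdown (log2 fold change -2.66, SE 0.07). INSM1 stood at 0.635 and 0.583 CPM in shIGF2BP3, against 8.39 and 8.08 CPM in shControl. That is 18 and 16 counts in the knockdown libraries and 226 and 253 counts in the controls, again without overlap. INSM1 was 13.5-fold lower (log2 fold change -3.74, SE 0.33). In bulk RNA, fewer cells of a type and less RNA per cell cannot be told apart.

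INSM1 is the marker gene of the pair, but INSM2 carried nearly all of the INSM RNA in this line. Per kilobase of merged exons, INSM2 stood at 21.8 ± 1.22 CPM in shIGF2BP3 and at 138 ± 3.85 CPM in shControl (SD, n = 2 each). INSM1 stood at 0.215 ± 0.0130 CPM per kilobase in shIGF2BP3 and at 2.91 ± 0.0776 CPM per kilobase in shControl. INSM1 made up 0.978% ± 0.0044 of the pair in shIGF2BP3 and 2.07% ± 0.0028 in shControl (SD, n = 2 each). Both genes consist of a single exon. INSM1 (ENSG00000173404) occupies 20368121 to 20370949 on the plus strand of chromosome 20, and INSM2 (ENSG00000168348) occupies 35534042 to 35537054 on the plus strand of chromosome 14. In shControl, INSM2 lay above 98.9% of the tested protein-coding genes by this length-scaled level. In shIGF2BP3 it lay above 87.7%. INSM1 lay above 7.22% in shIGF2BP3 and 36.1% in shControl.

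Both SCRT genes were much higher in the knockdown. SCRT1 stood at 431 and 391 CPM in the shIGF2BP3 libraries, against 53.7 and 51.7 CPM in the shControl libraries, a 7.81-fold higher mean (log2 fold change 2.97, SE 0.08). SCRT2 stood at 73.6 and 71.5 CPM in shIGF2BP3, against 12.0 and 11.4 CPM in shControl, a 6.21-fold higher mean (log2 fold change 2.64, SE 0.11). Neither gene's groups overlapped, as in 74.5% of all tested genes. SCRT1 (ENSG00000261678) is a minus-strand gene of chromosome 8 at 144330565 to 144336281, and SCRT2 (ENSG00000215397) a minus-strand gene of chromosome 20 at 661596 to 676179. SCRT1 was the main copy in both groups, with 84.3% ± 0.643 of the pair in shIGF2BP3 and 81.0% ± 0.106 in shControl by length-scaled level. It lay above 98.8% of tested protein-coding genes in shIGF2BP3 and 77.1% in shControl. Exons of SCRT2 overlap those of AL121758.1, a gene on the same strand, which was given 13 and 110 counts in shIGF2BP3, against 35 and 10 in shControl. Reads could have been split between them either way.

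**Figure D1:**
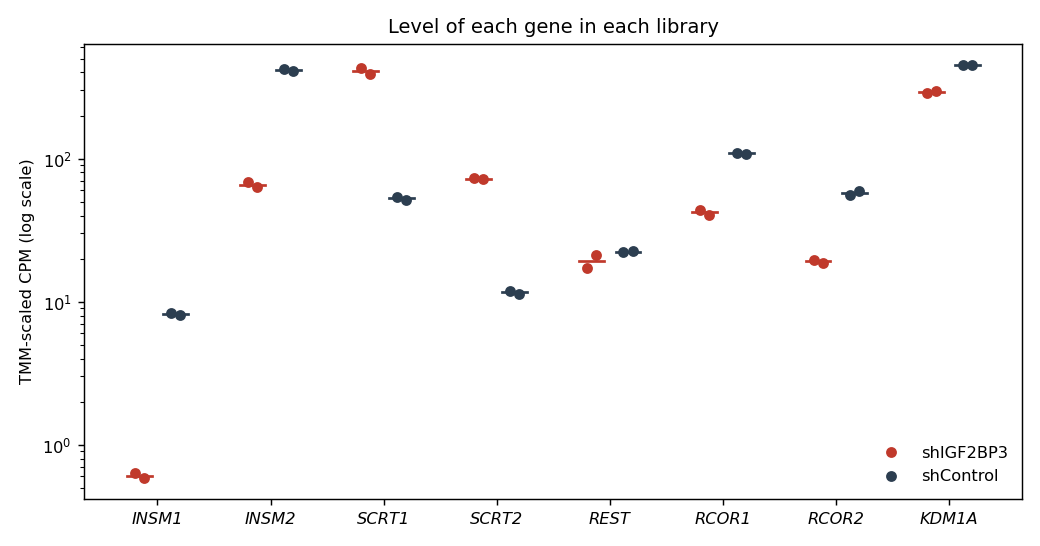
TMM-scaled CPM on a log axis for the 8 genes with enough counts to fit, with a point per library, a bar at each group's mean (n = 2 libraries), shIGF2BP3 left of shControl. INSM1 and INSM2 are low and SCRT1 and SCRT2 high in shIGF2BP3, RCOR1, RCOR2 and KDM1A are lower by less, and the REST points lie close together.

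Set side by side, the larger sum was that of the SCRT pair in the knockdown and that of the INSM pair in the control. The summed length-scaled level of SCRT1 and SCRT2 was 129 ± 7.91 CPM per kilobase in shIGF2BP3 and 17.2 ± 0.485 in shControl. The sum of INSM1 and INSM2 was 22.0 ± 1.24 CPM per kilobase in shIGF2BP3 and 141 ± 3.92 in shControl (SD, n = 2 each). The ratio of the SCRT sum to the INSM sum was 5.89 and 5.84 in the shIGF2BP3 libraries, against 0.122 and 0.122 in the shControl libraries. These are levels of RNA, and no protein was measured.

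**Figure D2:**
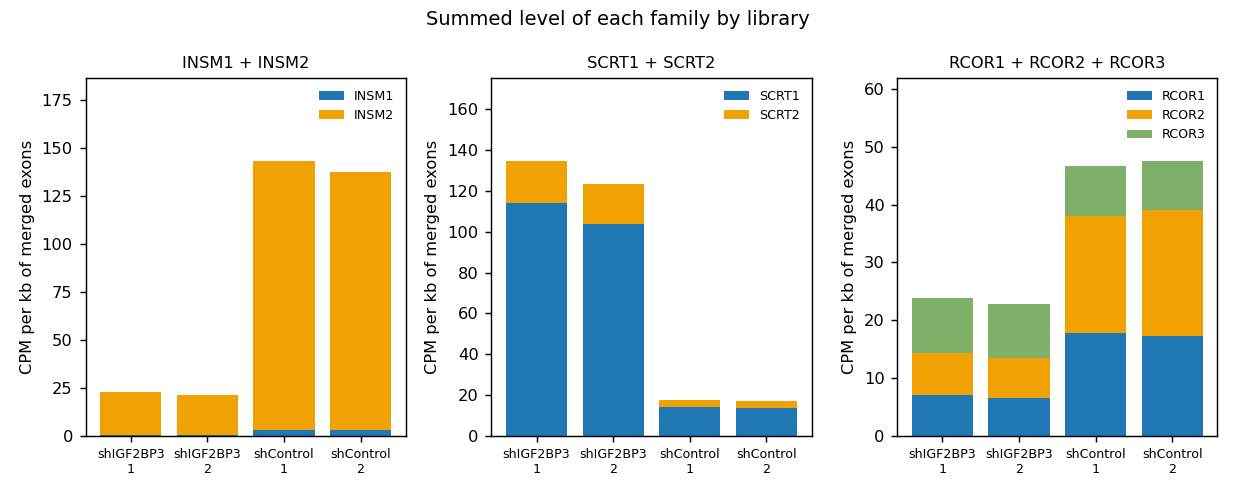
Stacked bars give CPM per kilobase of merged exons in each library, for the INSM pair, the SCRT pair and the RCOR trio, with shIGF2BP3 libraries left of shControl libraries. The INSM sum is near 22 CPM per kilobase in shIGF2BP3 and near 141 in shControl, the SCRT sum is 129 and 17.2, and in the RCOR trio the RCOR3 segment is of like height in all 4 libraries.

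The fifth SNAG member, GFI1, was at or under the floor in every library. Its counts were 0 and 1 in shIGF2BP3, against 0 and 0 in shControl. A count of 0 allows up to 3 counts, between 0.0958 and 0.111 CPM in these libraries, which covers counting error only. GFI1 (ENSG00000162676, chromosome 1, 92474762 to 92486876, minus strand) was therefore not fitted.

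Of the 7 other SNAG zinc finger genes, 2 had enough counts and both rose, as did 25.9% of all tested genes. SNAI2, a Snail family repressor active in neural crest and in epithelial-mesenchymal transition, averaged 40.7 ± 0.979 CPM in shIGF2BP3 and 19.9 ± 0.220 CPM in shControl (SD, n = 2 each, with no overlap; log2 fold change 1.03, SE 0.11, adjusted p = 3.239e-07 by edgeR's quasi-likelihood test). SNAI1, its paralog, stood at 29.4 and 30.5 CPM in shIGF2BP3, against 23.2 and 20.7 CPM in shControl (log2 fold change 0.45, SE 0.12, adjusted p = 0.00325 by the edgeR test). SNAI3, GFI1B, OVOL1, OVOL2 and OVOL3 had between 0 and 14 counts per library and were not fitted.

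REST itself was modest in both groups and differed little. It stood at 17.3 and 21.3 CPM in shIGF2BP3, against 22.3 and 22.5 CPM in shControl. The groups did not overlap, but the gap between the nearest libraries was smaller than the gap between the shIGF2BP3 libraries. The log2 fold change was -0.22 (SE 0.13). It was -0.07 without shIGF2BP3 replicate 1 and -0.37 without shIGF2BP3 replicate 2. Per kilobase, REST had 2.42 ± 0.350 CPM in shIGF2BP3 and 2.81 ± 0.0179 CPM in shControl, above 32.4% and 35.4% of tested protein-coding genes. REST (ENSG00000084093, chromosome 4, 56907876 to 56966678, plus strand) shares exonic sequence with NOA1 on the opposite strand, and the strand setting of the counting is not given in the sources used here. NOA1 had 56.9 ± 4.26 CPM in shIGF2BP3 and 63.8 ± 1.65 CPM in shControl and did not pass the test.

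The CoREST genes were lower. RCOR2, the scaffold linked to stem and progenitor cells, stood at 19.7 and 18.7 CPM in shIGF2BP3, against 55.3 and 59.5 CPM in shControl, 2.99-fold lower (log2 fold change -1.58, SE 0.11). RCOR1, the scaffold first described as CoREST, stood at 43.9 and 40.6 CPM in shIGF2BP3, against 110 and 107 CPM in shControl, 2.57-fold lower (log2 fold change -1.36, SE 0.08). KDM1A, which encodes the demethylase LSD1, stood at 286 and 298 CPM in shIGF2BP3, against 454 and 448 CPM in shControl, 1.54-fold lower (log2 fold change -0.63, SE 0.06). In all 3 genes both knockdown libraries lay below both controls, and groups did not overlap in 74.5% of all tested genes. RCOR1 (ENSG00000089902) lies on the plus strand of chromosome 14 from 102592661 to 102730576, RCOR2 (ENSG00000167771) on chromosome 11, minus strand, at 63911221 to 63916844, and KDM1A (ENSG00000004487) on the plus strand of chromosome 1 from 23019443 to 23083689.

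The third scaffold gene, RCOR3, had 86.6 and 85.4 CPM in shIGF2BP3, against 79.6 and 77.8 CPM in shControl, and did not pass the test (log2 fold change 0.13, SE 0.08, adjusted p = 0.1761 by the edgeR test). The make-up of the scaffold RNA therefore differed between the groups. RCOR3 made up 40.7% ± 0.877 of the length-scaled RCOR sum in shIGF2BP3 and 18.4% ± 0.530 in shControl. RCOR2 made up 30.1% ± 0.177 in shIGF2BP3 and 44.4% ± 1.73 in shControl, and RCOR1 29.3% ± 0.700 and 37.2% ± 1.20 (SD, n = 2 each). The whole sum was 23.3 ± 0.720 CPM per kilobase in shIGF2BP3 and 47.1 ± 0.598 in shControl. The length-scaled ratio of KDM1A to this sum was 2.21 and 2.41 in shIGF2BP3 and 1.79 and 1.73 in shControl.

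Counted by the test used for all genes, 2 of the 8 fitted genes were higher (SCRT1 and SCRT2), 5 were lower and REST did not pass. Over all 19767 tested genes 51.5% passed, 25.9% higher and 25.6% lower, and in 74.5% the groups did not overlap. Since the genes were picked with this contrast known, nothing is read from their count. For scale, 52 tested genes, INSM1 among them, had a fold change as low as that of INSM1, and 189 as low as that of INSM2. A rise as large as that of SCRT1 was seen in 267 tested genes, and as large as that of SCRT2 in 361.

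The partners of LSD1 and CoREST were lower on balance. Of 12 partners 8 fell, 1 rose and 3 did not pass, with a median log2 fold change of -0.43 against 0.01 over all tested genes. Of all tested genes 25.6% fell and 25.9% rose. HDAC1 and HDAC2, the deacetylases of the complex, fell by 0.75 (SE 0.09) and 0.66 (SE 0.06) on the log2 scale. HDAC2 stood at 248 and 263 CPM in shIGF2BP3, against 407 and 400 CPM in shControl. The corepressors CTBP2 and CTBP1 fell by 0.78 and 0.49, and the zinc finger partner ZMYM3 by 0.72. The one gene that rose was KDM1B, the LSD1 paralog that works outside CoREST, at 54.7 ± 4.21 CPM in shIGF2BP3 and 37.8 ± 3.75 CPM in shControl (log2 fold change 0.54, adjusted p = 0.0002209 by edgeR). With scaling by library size alone, 3 partners rose and 7 fell. The call of HMG20B, among the 8, ended without shIGF2BP3 replicate 2 and without shControl replicate 2, with adjusted p up to 0.2233 by edgeR.

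Genes that assist REST or set its amount, listed together with the splicing regulators PTBP1 and PTBP2, also leaned lower. Of these 21 genes, 13 were lower by the test, 3 were higher and 5 missed the threshold. The shares over all tested genes were 25.6% lower and 25.9% higher. The median log2 fold change was -0.25. The list mixes genes that stabilise REST with genes that act against it, so this median does not measure REST function. PTBP1, a splicing repressor of neuronal exons, stood at 238 and 219 CPM in shIGF2BP3, against 512 and 551 CPM in shControl (log2 fold change -1.22, SE 0.07, adjusted p = 7.792e-11 by edgeR). CTDSP2 and CTDSPL, small phosphatases that stabilise REST, fell by 0.85 and 0.62 on the log2 scale, the kinase CSNK1D by 0.63 and the remodelling ATPase SMARCA4 by 0.39. SRRM3 was the largest of the rises in this list. It promotes neuronal microexons and, with its paralog SRRM4, a truncated REST isoform. SRRM3 stood at 140 and 130 CPM in shIGF2BP3, against 49.1 and 56.9 CPM in shControl (log2 fold change 1.35, SE 0.09, adjusted p = 4.871e-10 by edgeR). SRRM4 stood at 67.1 and 63.1 CPM in shIGF2BP3, against 51.3 and 51.6 CPM in shControl (log2 fold change 0.34, adjusted p = 0.002939 by edgeR). The gene table holds no isoforms, so the splicing of REST was not measured. Of the 13 lower genes, EHMT1, EHMT2, USP7 and CSNK1E lost their calls when single libraries were left out, with adjusted p up to 0.153, 0.209, 0.0751 and 0.0920 by edgeR.

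**Figure D3:**
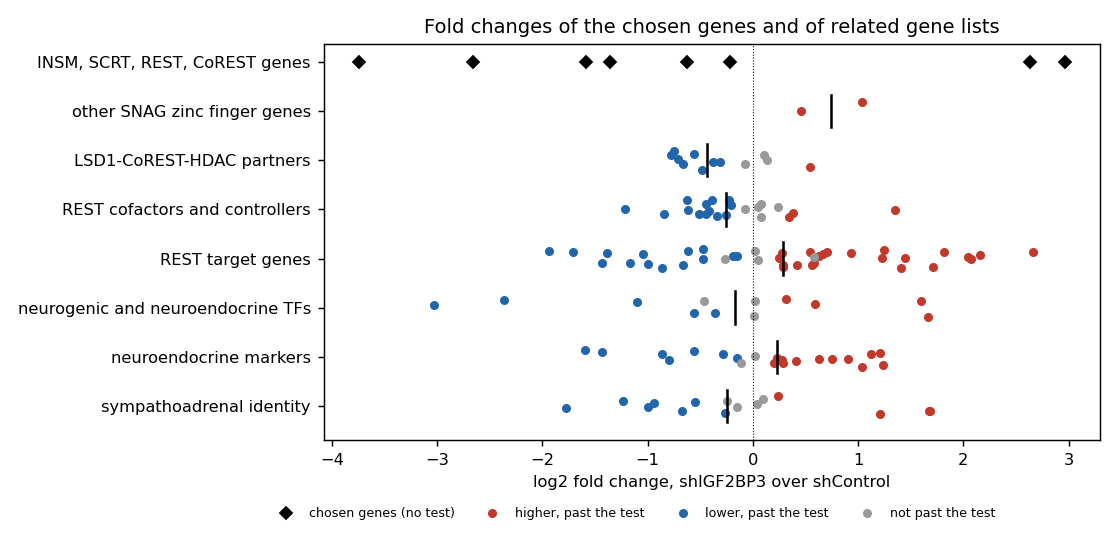
Log2 fold change of shIGF2BP3 over shControl for the chosen genes (diamonds, top row) and for each tested gene of the related lists (points, spread vertically only for legibility), with a short vertical bar at each list's median. The chosen genes span from -3.74 for INSM1 to 2.97 for SCRT1, while the medians of the lists lie between -0.43 and 0.74.

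Known REST target genes went both ways. Of 41 genes with a reported REST site, 40 were tested, and 22 rose while 14 fell and 4 missed the threshold. Among all tested genes 25.9% rose and 25.6% fell. The median log2 fold change was 0.29. Their summed level was 5862 and 5839 CPM in shIGF2BP3, against 5983 and 6126 CPM in shControl. SYT4, a synaptotagmin of dense-core vesicles, stood at 81.7 and 92.1 CPM in shIGF2BP3, against 20.8 and 20.6 CPM in shControl (log2 fold change 2.07, SE 0.10, adjusted p = 1.441e-11 by edgeR). The NMDA receptor subunit GRIN1 stood at 85.3 and 79.1 CPM in shIGF2BP3, against 17.8 and 22.0 CPM in shControl (log2 fold change 2.04, SE 0.11). The release factors CPLX1 and UNC13A rose by 1.45 and 1.23 on the log2 scale, and the sodium channel SCN3A by 1.41. In the other direction TUBB3, a neuronal tubulin, stood at 186 and 166 CPM in shIGF2BP3, against 461 and 459 CPM in shControl (log2 fold change -1.39, SE 0.07).

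Further REST targets are named here, chosen after their values were seen. Among the granins and VGF, which fill secretory granules, CHGA fell by 1.43, CHGB by 0.87, VGF by 0.47 and SCG2 by 0.15 on the log2 scale, while SCG3 did not pass (log2 fold change 0.02, SE 0.07). Leaving out single libraries ended the call of SCG2 (adjusted p up to 0.1436 by edgeR). BDNF fell by 1.71 and SYT7 by 1.94, whereas the vesicle genes SNAP25 and RPH3A rose by 0.63 and 1.71. The rise with the highest log2 fold change in the list, 2.66 for NPTX1, rests on 117 and 151 counts in shIGF2BP3 and on 10 and 34 in shControl. It was 2.14 without shControl replicate 1 and 3.66 without shControl replicate 2. Leaving out single libraries gave 16 to 20 REST targets that rose and 12 to 13 that fell.

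**Figure D4:**
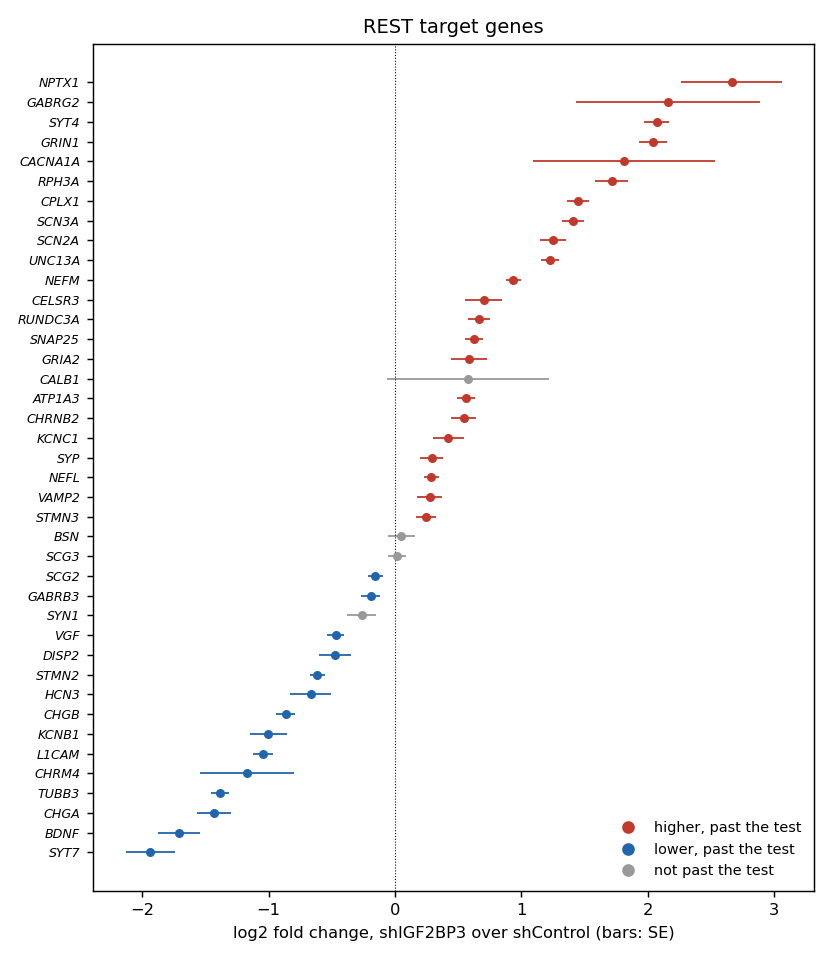
Log2 fold change of shIGF2BP3 over shControl for the 40 tested REST target genes, ordered by value, with bars of 1 SE and the outcome of edgeR's quasi-likelihood test in colour. The 22 genes that rose reach 2.66 (NPTX1) and the 14 that fell reach -1.94 (SYT7).

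Neurogenic and neuroendocrine transcription factors were divided as well. Of 27 such genes 12 were tested, of which 5 fell, 4 rose and 3 did not pass. NEUROD1, a neuroendocrine differentiation factor, was counted 7 and 25 times in shIGF2BP3, against 107 and 169 times in shControl (log2 fold change -3.03, SE 0.43, adjusted p = 1.174e-05 by edgeR). Leaving out single libraries moved this value between -4.23 (without shIGF2BP3 replicate 2) and -2.37 (without shIGF2BP3 replicate 1). EBF1, an early B cell factor family member, stood at 37.1 and 36.8 CPM in shIGF2BP3, against 83.0 and 75.2 CPM in shControl (log2 fold change -1.10, SE 0.09, adjusted p = 1.461e-08 by edgeR). The proneural relatives ATOH8 and NHLH1 rose by 1.67 and 1.60, and MYT1L, a repressor of non-neuronal genes, rose by 0.59, to 74.2 and 73.7 CPM in shIGF2BP3, against 47.5 and 50.6 CPM in shControl. Changes in either direction were common in these data, with 25.9% of all tested genes higher and 25.6% lower.

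Markers of neuroendocrine cells, some used in diagnosis and others general vesicle, peptide-processing and adhesion genes, went both ways. Of 24 neuroendocrine markers 21 were tested, of which 12 rose, 7 fell and 2 did not pass, and 7 of the 24 are also in the REST target list. For comparison, 25.9% of all tested genes rose and 25.6% fell. The adhesion molecule NCAM1 stood at 647 and 681 CPM in shIGF2BP3, against 283 and 292 CPM in shControl (log2 fold change 1.21, SE 0.06, adjusted p = 3.206e-11 by edgeR). Its relative NRCAM rose by 1.12, the vesicle protein SV2A by 1.24 and SNAP25, a vesicle fusion protein, by 0.63. UCHL1, a neuronal deubiquitinase, stood at 285 and 276 CPM in shIGF2BP3, against 872 and 826 CPM in shControl (log2 fold change -1.60, SE 0.06), and the granin CHGB fell by 0.87. Among the markers used in diagnosis, chosen here after their values were seen, CHGA fell by 1.43 and ENO2 fell by 0.29, while NCAM1 rose by 1.21 and SYP by 0.29. Leaving out single libraries ended the call of SYP (adjusted p up to 0.119 by edgeR). Without single libraries the rising markers numbered between 9 and 10.

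Of 16 sympathoadrenal genes 15 were tested, of which 7 fell, 4 rose and 4 did not pass. Across all tested genes 25.6% fell and 25.9% rose. The lineage factors SOX11 and HAND2 fell by 1.78 and 1.23 on the log2 scale, KLF7 by 1.00 and tyrosine hydroxylase (TH) by 0.94. TBX2 and the noradrenaline enzyme DBH rose by 1.68 and 1.67. SOX11, which fell with the INSM genes, stood at 112 and 104 CPM in shIGF2BP3, against 370 and 371 CPM in shControl.

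The genes with the nearest pattern were sought by the distance between 4 centred log2 CPM values, 1 per library. The protein-coding genes nearest to INSM2 were the mitotic kinase PLK1 (distance 0.0463), the protease CTSV (0.107) and the kinase CAMK2G (0.112). Those nearest to INSM1 were the mitotic kinase PBK (0.0643), FAM72C (0.138) and the calcium channel subunit CACNG4 (0.181). FAM72C belongs to a family of near-identical copies, so its counts are uncertain. Nearest to SCRT1 were the zinc finger gene ZBTB47 (0.195), MINAR1 (0.225) and the phosphoglycerate mutase PGAM2 (0.234). With 2 libraries a group, such a likeness is set almost wholly by the size of the fold change.

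Neighbouring genes are described here, and whether a member moved with its stretch of chromosome was not tested. Of 51 protein-coding neighbours with a row, 3 on each side of a member where the table had them, 43 were tested, and 18 fell while 6 rose and 19 missed the threshold. Over all tested genes 25.6% fell and 25.9% rose. The median log2 fold change of the neighbours was -0.21, against 0.01 over all tested genes. Of the 4 tested neighbours of SCRT1, DGAT1 fell by 0.64 on the log2 scale and 3 did not pass, and of the 4 beside SCRT2, CSNK2A1 fell by 0.46 and 3 did not pass. Of the 6 neighbours of INSM1, 3 fell, among them RALGAPA2 by 1.34 and KIZ by 1.06 on the log2 scale. Of the 6 neighbours of INSM2, 3 fell and 1 rose, with PRORP falling by 1.17. The calls of NFKBIA and RALGAPA1, beside INSM2, and of DIPK1A, beside GFI1, ended without single libraries, at adjusted p up to 0.3001, 0.1836 and 0.09824 by edgeR. Beside RCOR1, ANKRD9 fell by 1.11 and AMN fell by 2.12. EPHB2, near KDM1A, fell by 1.24. No neighbour past the test had changed as much as the INSM or SCRT gene it lies beside. INSM1, INSM2 and SCRT1 were picked knowing their large changes, so this was likely beforehand and nothing is read from it. KDM1A differed (log2 fold change -0.63). Its 3 tested neighbours, EPHB2, LUZP1 (-0.98) and HNRNPR (-0.87), all fell by more. AMN also fell by more than RCOR1, but of the 6 neighbours of RCOR1 only 3 fell and 2 rose. Of the 6 neighbours of RCOR2, 4 fell, each by less than RCOR2. Of the 5 tested beside GFI1, 3 rose, and the 3 tested beside REST did not pass.

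Promoter windows from RefSeq on GRCh38.p14, each covering 250 bases before and 50 after an annotated start, were matched for 6 of the 9 members. INSM1, SCRT1 and RCOR2 had no matched window and were not searched. Stretches from INSM2 and SCRT2 are shown because these genes moved in opposite directions. Both strands were searched for the Snail-type E-box CAGGTG, which reads as its reverse complement in the SCRT2 stretch that holds it. They were also searched for TATAAA, a word chosen after the sequences were seen. Capitals mark the matches.
INSM2: cggcccgcgtctcagcTATAAAgatagccc
SCRT2: ctccagcctgcgtcccaTATAAAgccggca
SCRT2: ttgctaggggacCACCTGatctccagcctg
The first lies at chr14:35534119-35534148 on the plus strand, the second at chr20:675818-675847 and the third at chr20:675838-675867 on the minus strand. GENCODE 29 places the starts of both genes further upstream than RefSeq does. By that annotation the INSM2 stretch lies within the gene's only exon. The SCRT2 stretches lie within the gene, and whether they fall in an exon was not checked.

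The TATA word began 29 bases before the RefSeq start of INSM2 and 28 bases before that of SCRT2. It occurs at any place and on either strand in 11.5% of 35116 windows. The share of windows with the word at these positions was not counted. The E-box began 53 bases before the SCRT2 start and was not in the windows of INSM2, GFI1, REST, RCOR1 or KDM1A, while 20.6% of all windows hold it. The E2F-type words (TTTCCCGC or TTTCGCGC or TTTGCCGC or TTTGGCGC), searched on both strands, were in none of the windows of these 6 members and in 3.3% of all windows. No match overlapped another. A match is a description of letters and not a binding site.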

How the data were processed

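The authors deposited whole-number counts per Ensembl gene, 1 column per library. The submitters' processing notes list HISAT2 2.2.0, StringTie and hg38, with no order or settings. The annotation, strand setting and rule of counting were not given in the sources used here, so overlapping or near-identical genes are uncertain. Symbols came from a gene name table for 56105 rows and from GENCODE 29 for 486 more, and 7661 rows had none. Merged exon lengths and coordinates are GENCODE 29 on GRCh38.

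The test was that of edgeR 4.0.16, run under R 4.3.3 (filterByExpr with a smallest count of 10, TMM, robust quasi-likelihood fit, Benjamini-Hochberg adjustment over all tested genes, threshold 0.05), leaving 2 residual degrees of freedom. In this fit the variance of each gene was moderated towards that of other genes, with a median of 15.06 prior degrees of freedom. The members and lists were chosen with earlier results of these data known. Named genes were all members, up to 6 genes of each list by smallest p among those past the test, the 3 nearest patterns, and neighbours past the test with a log2 change of at least 1. Other named genes were chosen after their values were seen, and a few items under this rule are not reported here. List medians cover genes that passed the count filter. Alternatives were RLE and library size scaling, no filter, DESeq2 1.42.0, limma 3.58.1 voom, a replicate block, summed symbols and leaving out each library. Within a group, libraries differed beyond sampling noise: chi-square divided by its degrees of freedom was 7.26 for shIGF2BP3 and 8.43 for shControl. Amino acid identities were computed from translated coding starts.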

Additional observations from a re-analysis of the deposited data

How the results depend on the processing

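The fold changes of the 8 fitted members kept their sign under all 11 alternatives. INSM1 ran from -3.81 to -3.66, INSM2 from -2.71 to -2.58, SCRT1 from 2.90 to 3.05, SCRT2 from 2.58 to 2.72 and REST from -0.37 to -0.07 on the log2 scale. There were 8869 genes past the test with DESeq2, 10112 with limma voom, 8757 without a low-count filter and 8800 to 9442 without single libraries. Under library size scaling, 3 LSD1-CoREST-HDAC partners were higher in place of 1, and the cause was not tested. The other list counts stayed within 1.5 times their value. The replicate block gave 10509 genes. Libraries of the same number had a correlation of deviations of 0.021, and same-numbered libraries were not treated as pairs. Of the values of single tested genes under alternatives, 74 lost their call and 1542 kept it. INSM1 rests on 18 and 16 counts in shIGF2BP3, which limits its fold change, and the depth cannot show GFI1 below 3 counts.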
